A study of Mus musculus with 6 samples.

Results

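Ttr, the gene for transthyretin, and 9 genes that are commonly read as markers of the choroid plexus or of the retinal pigment epithelium (Folr1, Kcnj13, Clic6, Kl, Foxj1, Aqp1, Rpe65, Rlbp1 and Rbp4) were followed in each sample of an RNA-Seq experiment on the embryonic mouse face. They were picked by name from the table of all samples, and all 10 were found among its 38553 genes. Ttr was picked because its level differs widely between these samples, so its values and the likeness of other genes to it are given as a description. The tissue was craniofacial tissue microdissected at E12.5 from mice of mixed genetic background. The 3 control samples were Rbfox2 flox/flox, and the 3 mutant samples were Pax3 Cre/+ with Rbfox2 flox/flox. All 6 samples therefore carry floxed Rbfox2 alleles, while the mutants alone carry Cre, which is knocked into 1 Pax3 allele, so loss of Rbfox2 and of that Pax3 allele cannot be told apart. The study used this Cre for deletion in premigratory and migratory neural crest and in paraxial mesoderm and somite derivatives.

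The choroid plexus is a sheet of secretory epithelium that grows out of the roof of the brain ventricles, makes cerebrospinal fluid and carries tufts of motile cilia. Transthyretin, a carrier of thyroid hormone and of the retinol-binding protein encoded by Rbp4, is its best known secreted product, and it is also made in the liver, the yolk sac and the retinal pigment epithelium. The retinal pigment epithelium lies behind the photoreceptors and recycles retinoids with the isomerase Rpe65 and the retinaldehyde-binding protein encoded by Rlbp1. Neither epithelium is part of the palate or of the facial mesenchyme.

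The 250 bases before the start site of 2 of the genes are shown, as RefSeq gives them for GRCm38.p6, because both encode parts of potassium channels of the choroid plexus apical membrane and both were low where Ttr was low, Kcne2 with a swing at least as wide as that of Ttr and Kcnj13 more loosely. Kcnj13 is 1 of 6 members matched in the promoter table (Aqp1, Kcnj13, Kl, Rbp4, Rlbp1 and Rpe65), and Kcne2 is a choroid plexus gene outside the 10. Clic6, Folr1, Foxj1 and Ttr are named only. The windows were searched on both strands for TGTTTA, a core of forkhead sites, for GTTGCC, an arm of the X-box read by Rfx factors, and for TAATCC, a site of Otx factors. Capitals mark the matches, and none of the matches overlap.
Kcnj13: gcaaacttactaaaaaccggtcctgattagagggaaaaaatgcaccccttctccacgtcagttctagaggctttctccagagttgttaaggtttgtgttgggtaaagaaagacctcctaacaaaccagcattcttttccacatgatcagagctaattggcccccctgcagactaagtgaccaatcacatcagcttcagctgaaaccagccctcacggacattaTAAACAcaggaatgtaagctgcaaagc
Kcne2: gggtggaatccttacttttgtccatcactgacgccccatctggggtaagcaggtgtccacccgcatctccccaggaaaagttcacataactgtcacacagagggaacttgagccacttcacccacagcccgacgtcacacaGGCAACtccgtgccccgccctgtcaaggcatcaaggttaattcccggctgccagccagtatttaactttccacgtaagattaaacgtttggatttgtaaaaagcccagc

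The Kcnj13 window is chr1:87394730-87394979 on the minus strand, with the reverse complement of the forkhead core at position -27 from the start. The Kcne2 window is chr16:92292139-92292388 on the plus strand, with the reverse complement of the X-box arm at -109. Of 32851 promoter windows of the same length, 12.03% hold the forkhead core, 10.4% the X-box arm and 6.25% the Otx site. A second annotated start of Kcne2 (window chr16:92295366-92295615) has no match. Of the other members with a window, Rpe65, which was at 0 in all samples, holds the forkhead core and the Otx site, Rbp4 holds the forkhead core at 1 of its 2 starts, Aqp1 holds the X-box arm, and Kl and Rlbp1 hold none of the 3. A match is a run of letters and was not tested as a binding site.

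Expression is given as FPKM, the number of fragments assigned to a gene scaled by the gene's length and by all mapped fragments of the sample, so levels of different genes can be set side by side per length. The read count behind a value is unknown. FPKM summed to between 528123 and 590174 per sample. Rbfox2, the deleted gene, was at 58.4, 65.0 and 61.3 FPKM in control replicates 1, 2 and 3 and at 38.1, 36.3 and 34.3 in mutant replicates 1, 2 and 3, and the groups did not overlap. All 11 facial mesenchyme markers examined were present, with a mean of at least 14.8 FPKM each. The first replicates stood apart from the rest. On the first principal component, with 44.2% of the variance, control replicate 1 and mutant replicate 1 were at -25.6 and -24.1 and the other 4 samples between 10.2 and 15.6. In mutant replicates 1 and 2 the Y-linked Ddx3y was at 14.1 and 12.1 FPKM, and in the other 4 samples at no more than 0.0484. Xist, a marker of female embryos, was at 98.8, 116 and 73.7 FPKM in control replicates 1, 2 and 3. It was at 0.383, 0.330 and 52.7 FPKM in mutant replicates 1, 2 and 3. By these genes sex was unbalanced between the groups, and its part in their differences was not tested.

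Ttr was at 56.1, 1.04 and 1.91 FPKM in control replicates 1, 2 and 3. It was at 27.4, 67.6 and 22.9 FPKM in mutant replicates 1, 2 and 3. Control replicates 2 and 3 were thus close to the bottom of the scale, with 1.54% and 2.82% of the level in mutant replicate 2, while control replicate 1 reached 83.1% of it and lay above 2 of the 3 mutants. The highest sample was 65.0 times the lowest. The control mean was 19.7 ± 31.6 FPKM and the mutant mean 39.3 ± 24.6 FPKM (SD over 3 samples each), and the groups overlapped. By the SD of log2(FPKM + 1) over the 6 samples, 2.18 for Ttr, it ranked 14 among 17826 genes with a mean FPKM over 0.1 and 5 among the 15354 of these annotated as protein-coding. The 5 genes with the highest SD were the ribosomal pseudogene Rps26-ps1, the pseudogene Gm6969, Xist, which marks female embryos, the pseudogene Vcp-rs and Gm13305. Ttr is therefore among the most variable genes of the series but not the most variable.

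**Figure D1:**
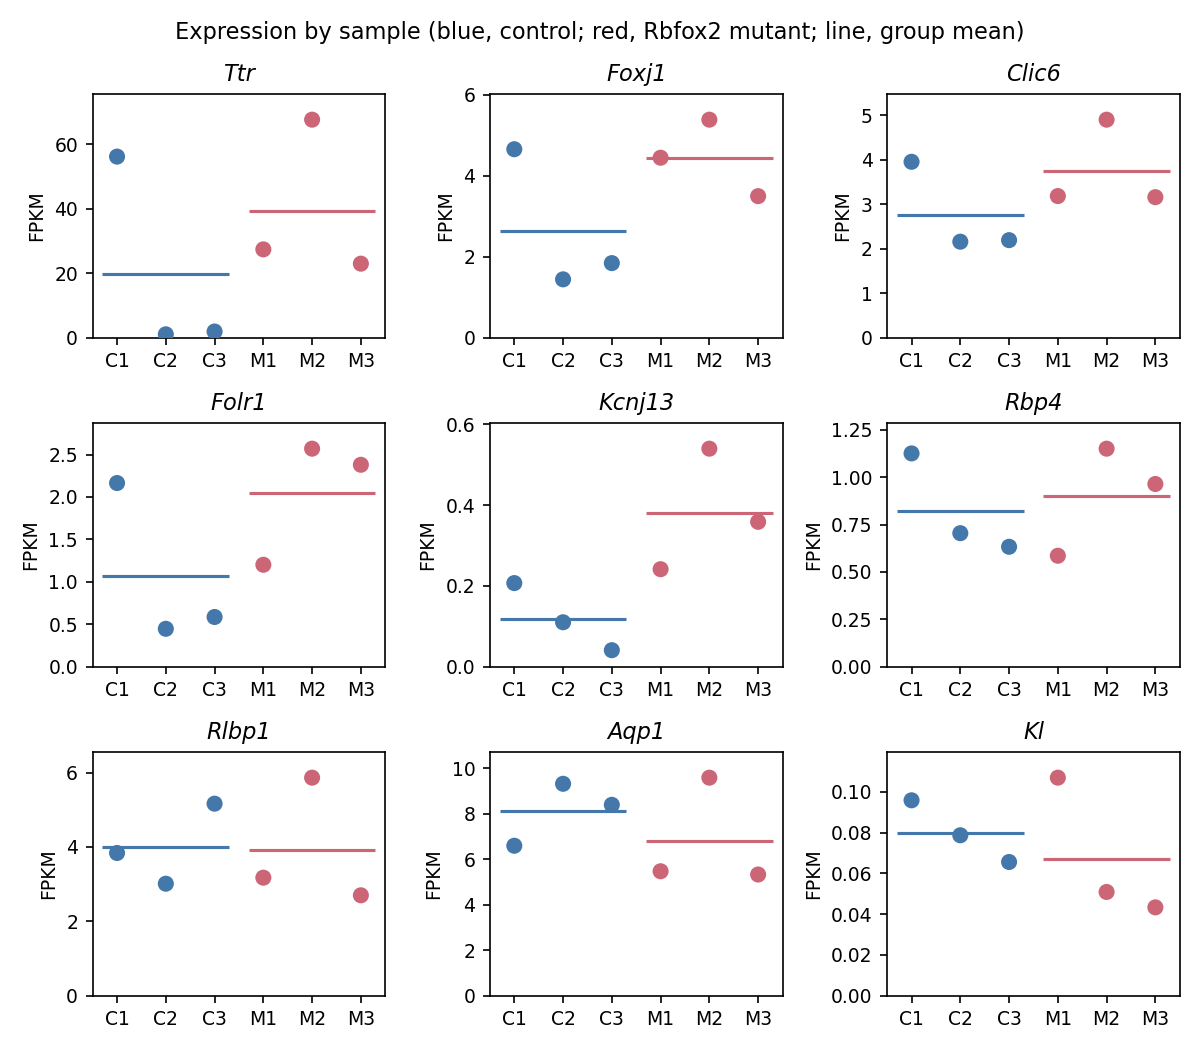
FPKM (vertical axis, linear, from 0) of 9 of the 10 genes in control replicates 1 to 3 (C1 to C3, blue) and mutant replicates 1 to 3 (M1 to M3, red); points are single samples and lines are group means. Ttr, Foxj1, Clic6 and Folr1 are low in C2 and C3 and higher in C1 and in the mutants, while Aqp1 and Rlbp1 are not lowest in C2 and C3; Rpe65, listed at 0 in all 6 samples, is not drawn.

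Of the 9 other members, 4 were at their lowest in the same 2 controls as Ttr, namely Foxj1, Clic6, Folr1 and Kcnj13. A further 3, Rbp4, Rlbp1 and Aqp1, were not, and Kl and Rpe65 were at or near 0. Having control replicates 2 and 3 as the lowest samples was seen in 9.6% of all genes tested, and in 4 of the 7 members other than Ttr with a mean FPKM over 0.1. The pattern therefore was shared by the ciliary factor and 3 of the 4 membrane or transport genes of the choroid plexus, and by neither of the measurable retinoid carriers.

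Foxj1, the forkhead factor that switches on motile cilia genes, lies on chromosome 11 (chr11:116330704-116335399, GRCm38, GENCODE M21 annotation). It was at 4.66, 1.44 and 1.84 FPKM in control replicates 1, 2 and 3 and at 4.45, 5.39 and 3.50 in mutant replicates 1, 2 and 3. The 6 samples fell in the same order as for Ttr, from control replicate 2 at the bottom, through control replicate 3, mutant replicate 3, mutant replicate 1 and control replicate 1, to mutant replicate 2 at the top. That exact order was found in 0.264% of the genes tested. Foxj1 moved far less than Ttr, with the highest sample 3.74 times the lowest.

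Clic6, a member of the chloride intracellular channel family that is abundant in choroid plexus epithelium, was the other member with the order of Ttr (chr16:92485736-92541243). Its values were 3.96, 2.16 and 2.19 FPKM in control replicates 1, 2 and 3 and 3.18, 4.90 and 3.16 in mutant replicates 1, 2 and 3. The range was narrow, 2.27-fold from lowest to highest. Clic6 shares its interval and strand with the annotated transcript 2410124H12Rik, so part of its value could belong to that transcript.

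Folr1, the folate receptor that carries folate across the choroid plexus, lies at chr7:101858331-101870788 and overlaps Anapc15 on the opposite strand. It was at 2.16, 0.446 and 0.586 FPKM in control replicates 1, 2 and 3 and at 1.20, 2.57 and 2.38 in mutant replicates 1, 2 and 3. It was low where Ttr was low, but among the other samples mutant replicate 3 was at 92.6% of the highest sample, where Ttr was at 33.9%. The highest sample was 5.76 times the lowest.

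Kcnj13, an inwardly rectifying potassium channel of the apical membrane of the choroid plexus and of the pigment epithelium, was close to the floor throughout. It was at 0.207, 0.11 and 0.0408 FPKM in control replicates 1, 2 and 3 and at 0.241, 0.540 and 0.359 in mutant replicates 1, 2 and 3. All 3 mutants lay above all 3 controls, the only member tested for which the groups did not overlap. Of all genes tested, 6.55% had groups that did not overlap, 3.03% with the mutants above and 3.52% with the mutants below. The gene (chr1:87386363-87394729) lies within Gigyf2 on the opposite strand, and the strand setting of the counting is not given in the sources used here, so its low values may include fragments of Gigyf2.

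Rbp4, the plasma carrier of retinol that binds transthyretin, lies at chr19:38116629-38125281. It was at 1.13, 0.705 and 0.633 FPKM in control replicates 1, 2 and 3 and at 0.586, 1.15 and 0.964 in mutant replicates 1, 2 and 3. Here the lowest sample was mutant replicate 1, in which Ttr was at 40.5% of its highest level. With 1 sample left out, r with Ttr ranged from 0.594 (without mutant replicate 2) to 0.980 (without mutant replicate 1).

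Aqp1, the water channel of the choroid plexus that is also made by red cells and vessels, was highest among the 9 other members (chr6:55336432-55348555). It was at 6.59, 9.32 and 8.39 FPKM in control replicates 1, 2 and 3 and at 5.47, 9.59 and 5.33 in mutant replicates 1, 2 and 3. Control replicate 2, the lowest for Ttr, was the second highest for Aqp1. Rlbp1, which also serves Müller glia, lies at chr7:79374870-79387048 and was at 3.84, 3.01 and 5.17 FPKM across control replicates 1 to 3 and at 3.17, 5.87 and 2.70 across mutant replicates 1 to 3. Both genes were highest in mutant replicate 2 and lowest in mutant replicate 3.

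Kl, which encodes the FGF23 co-receptor klotho (chr5:150952607-150993817), was between 0.0433 and 0.107 FPKM in the 6 samples and below the filter of a mean of 0.1. Rpe65, the defining isomerase of the pigment epithelium visual cycle (chr3:159599175-159625321), was listed at 0 in all 6 samples. No fold or test is given for either.

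**Figure D2:**
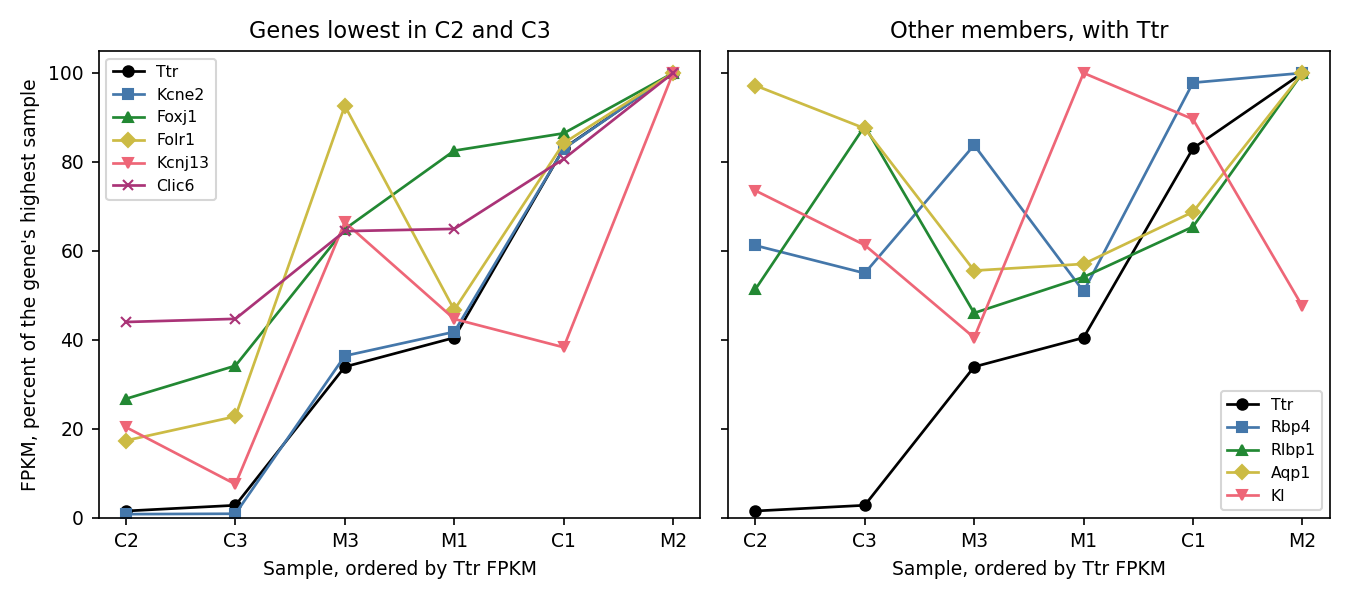
Expression as percent of each gene's own highest sample (vertical axis, linear), with samples ordered along the horizontal axis by Ttr. Ttr and Kcne2 run together from under 3% in C2 and C3 to 100% in M2 and Foxj1 and Clic6 keep the order over a narrower range (left), while Rbp4, Rlbp1, Aqp1 and Kl stay at 40% or more in every sample and do not follow the order (right).

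The likeness to Ttr was put into numbers as Pearson's r and Spearman's rho of log2(FPKM + 1) over the 6 samples, with no p since Ttr was chosen for its spread. All genes of a sample share its dissection and its quantification, and the first replicates stood apart from the rest. For Foxj1 r was 0.989 and for Clic6 0.951, both with rho of 1.0. For Folr1 r was 0.925 with rho of 0.829, for Kcnj13 0.797 with 0.714, and for Rbp4 0.698 with 0.60. Rlbp1 had r of 0.154 with rho of 0.543, and Aqp1 had r of -0.386 with rho of 0.0857. The median over these 7 members was 0.797, against -0.074 over all genes tested, of which the middle 50% lay between -0.47 and 0.39. An r of at least 0.8 was reached by 3 of the 7 members and by 4.69% of all genes tested. Of the other members, Aqp1 was most like Rlbp1, with r of 0.641, and Rbp4 most like Folr1, with r of 0.839.

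Since control replicates 2 and 3 lie far below the other 4 samples in Ttr, r was also taken over those 4, a setting added after the data were seen. Foxj1 and Clic6 stayed close to Ttr, with r of 0.878 and 0.949 over 4 samples. Folr1 and Kcnj13 were at 0.467 and 0.336, so their likeness over all samples rested on the 2 low controls. Rbp4 was at 0.691. Rlbp1 and Aqp1 went the other way, to 0.911 and 0.891, and had the order of Ttr within these 4 samples, so it was the 2 low controls alone in which they departed from it. Over these 4 samples an r of at least 0.8 was reached by 4 of the 7 members and by 6.45% of all genes tested.

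Mutant and control samples were compared with limma on log2(FPKM + 1), with no test for Ttr. None of the 7 members tested passed an adjusted p of 0.05, and neither did any of the 17826 genes (0.0%). The deleted gene Rbfox2 did not pass either, with a limma adjusted p of 0.203 although its groups did not overlap. Not passing therefore does not show that a gene is unchanged. At an unadjusted p of 0.05, 443 genes (2.49%) passed, of which 180 were higher in mutants (1.01% of all), and of the members Kcnj13 alone. With the replicate number as a block, 1035 genes (5.81%) and still Kcnj13 alone of the members passed the unadjusted threshold. In a fit of replicates 2 and 3 only, 1595 genes (8.95%) and 5 of the 7 members (Folr1, Foxj1, Clic6, Rbp4 and Kcnj13) passed it. That fit keeps the 2 controls lowest in Ttr and leaves out control replicate 1, where Ttr was at 56.1 FPKM. These 5 genes also moved together over all samples, with r between 0.605 and 0.938 for each pair. Their 5 calls are therefore not separate results and are given as a description. In the fit of all samples the mean was higher in mutants for 5 of the 7 members, against 49.7% of all genes. The median log2 fold change of the 7 was 0.30, against -0.00059 over all genes. The limma p-values weigh the group difference against the spread between samples of a group, drawn toward that of other genes of similar level. The labels do not say whether a sample came from 1 embryo or a pool.

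Foxj1 averaged 2.65 ± 1.75 FPKM over the 3 controls and 4.44 ± 0.945 over the 3 mutants (SD), a log2 fold change of 0.66 (SE 0.31, 95% interval -0.074 to 1.40, limma adjusted p = 1.0). Folr1 averaged 1.07 ± 0.954 and 2.05 ± 0.741 FPKM, a log2 fold change of 0.62 with an interval of -0.14 to 1.39. For Clic6 the means were 2.77 ± 1.03 and 3.75 ± 0.999 FPKM and the log2 fold change 0.35, with an interval of -0.18 to 0.87. The intervals of these 3 genes run from slightly below 0 to well above it, so they hold both no difference and a clear increase. Their exact two-sided permutation p-values were 0.30, 0.20 and 0.30, with 0.10 the smallest that 3 samples against 3 can give.

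Kcnj13 averaged 0.119 ± 0.0835 FPKM in controls and 0.380 ± 0.15 in mutants, with a log2 fold change of 0.30 (SE 0.10, interval 0.053 to 0.54, unadjusted p = 0.0237, limma adjusted p = 1.0, exact permutation p = 0.10). The pseudocount of 1 shrinks the fold change at this low level, and with a pseudocount of 0.1 the log2 fold change was 1.15. Without control replicate 2, control replicate 3 or mutant replicate 2, Kcnj13 no longer had an unadjusted p under 0.05. Rbp4 averaged 0.821 ± 0.266 and 0.900 ± 0.288 FPKM, with a log2 fold change of 0.060 and an interval of -0.30 to 0.42. Aqp1 averaged 8.10 ± 1.39 and 6.80 ± 2.42 FPKM, with a log2 fold change of -0.25 and an interval of -0.78 to 0.27. Rlbp1 averaged 4.0 ± 1.09 and 3.91 ± 1.71 FPKM, with a log2 fold change of -0.058 and an interval of -0.67 to 0.55. For these 3 genes the limma adjusted p was 1.0 and the exact permutation p was 0.90, 0.50 and 1.0.

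Each mutant was also set against the control of the same number. This matching is by label only, since the labels and methods tie no litter to a number. For Ttr the difference in log2(FPKM + 1), mutant minus control, was -1.01, 5.07 and 3.04 for replicates 1, 2 and 3. For Foxj1 it was -0.055, 1.39 and 0.66, and for Clic6 -0.24, 0.90 and 0.38. For Folr1 it was -0.52, 1.3 and 1.09, and for Kcnj13 0.041, 0.47 and 0.38. Replicate 1 was thus level or reversed where replicates 2 and 3 showed the mutant above the control. Rbp4 had the same signs as Ttr, at -0.42, 0.34 and 0.27. Aqp1, at -0.23, 0.037 and -0.57, and Rlbp1, at -0.21, 0.77 and -0.74, did not. In replicates 2 and 3 alone, both mutants were above both controls for 5 of the 7 members (Foxj1, Clic6, Folr1, Kcnj13 and Rbp4) and for 20.9% of all genes tested, so that pattern is frequent in the series. In a fit of these 4 samples Folr1 had a log2 fold change of 1.20 with a limma adjusted p of 0.237.

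**Figure D3:**
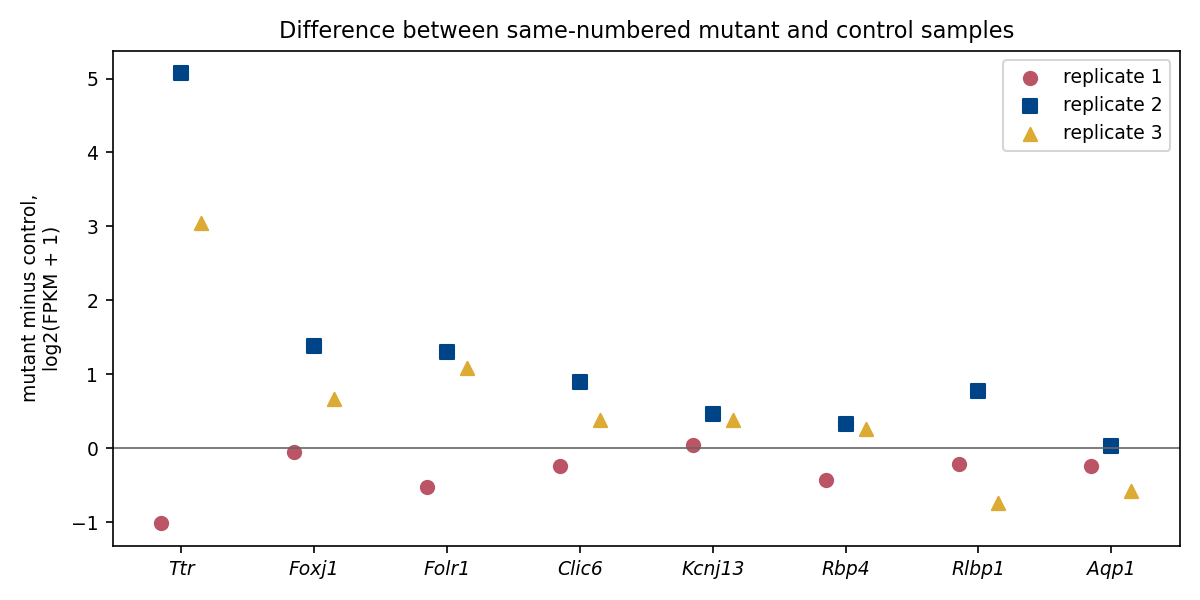
Difference in log2(FPKM + 1) between the mutant and the control of the same replicate number (vertical axis) for Ttr and the 7 members tested. Each point is 1 mutant and 1 control matched by number only, with no litter tied to it. For Ttr the points run from -1.01 in replicate 1 to 5.07 in replicate 2, and for Foxj1, Folr1, Clic6 and Rbp4 replicate 1 lies below 0 and replicates 2 and 3 above it.

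A wider list of 26 choroid plexus genes gave a divided picture. Of the 24 tested, 7 had control replicates 2 and 3 as the lowest samples, against 9.6% of all genes tested. An r with Ttr of at least 0.8 was reached by 5, against 4.69% of all genes tested. These were Kcne2, Slco1c1, Htr2c, Otx2 and Trpm3, which are named because of that value. The median r of the 24 was 0.27. The 4 most abundant genes of the list did not share the pattern. Igfbp2 was at 150.8 to 202 FPKM with r of 0.648, Wfdc2 at 20.3 to 25.1 with r of -0.256, Enpp2 at 12.6 to 17.1 with r of -0.664, and Sostdc1 at 11.99 to 17.8 with r of -0.503. Expression outside the choroid plexus is known for these 4 genes and also for Otx2, and its part in the values was not tested.

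Kcne2, a potassium channel subunit of the apical membrane of the choroid plexus, was the closest of the 26 in size of swing as well as in order. It was at 1.37, 0.0136 and 0.0151 FPKM in control replicates 1, 2 and 3 and at 0.689, 1.65 and 0.600 in mutant replicates 1, 2 and 3. As percent of the highest sample these values are 83.0, 0.826 and 0.919 across control replicates 1 to 3 and 41.8, 100 and 36.4 across mutant replicates 1 to 3. They lie within 3 percentage points of Ttr in each sample, and r was 0.972. The values in control replicates 2 and 3 are near 0 with an unknown number of reads behind them, so the width of the swing is uncertain. Slco1c1, a thyroid hormone transporter, was at 0.703, 0.189 and 0.226 FPKM across control replicates 1 to 3 and at 0.417, 0.741 and 0.660 across mutant replicates 1 to 3. Htr2c, a serotonin receptor of choroid plexus epithelium, was at 0.619, 0.0853 and 0.0189 FPKM across control replicates 1 to 3 and at 0.266, 0.343 and 0.267 across mutant replicates 1 to 3. Otx2, a homeobox factor of choroid plexus and anterior brain, ranged from 9.84 FPKM in control replicate 2 to 21.4 in control replicate 1. No gene of the list passed the adjusted threshold. At an unadjusted p of 0.05, Slc4a10 and Lbp were higher and Car12 lower in mutants. These are 3 of the 24 tested, against 2.49% of all genes tested.

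Genes of motile cilia and of the roof plate, the source of the choroid plexus, had a higher median r with Ttr than this list. Of 18 motile cilia genes tested out of 22, 8 had r of at least 0.8, against 4.69% of all genes tested. Control replicates 2 and 3 were lowest for 8, against 9.6% of all genes tested. The median r of the 18 was 0.714. Among them were Deup1 and Ccno, which act in making many centrioles per cell, at r of 0.99 and 0.983, and Gmnc and Mcidas, which commit cells to multiciliation, at 0.829 and 0.848. Ccno was at 2.01, 0.360 and 0.336 FPKM in control replicates 1, 2 and 3 and at 1.24, 1.70 and 1.35 in mutant replicates 1, 2 and 3. Of the 4 most abundant genes of this list, Rfx4 had r of 0.90, while Rfx3, Rfx2 and Tekt1 had r of 0.464, 0.363 and -0.0315. All 18 were higher in mutants by the mean, 1 of them (Dnah9) with an unadjusted p under 0.05, and their median log2 fold change was 0.11. The same lean was seen outside the choroid plexus, against 49.7% of all genes higher in mutants by the mean. It held for 13 of 13 erythroid genes (median 0.37), 12 of 13 forebrain genes (median 0.22) and 11 of 12 neuron genes (median 0.18). An unadjusted p under 0.05 was reached by 4 of the 12 neuron genes and by 2.49% of all genes tested. Of 11 roof plate and cortical hem genes tested out of 12, Lmx1a, Wnt8b and Rspo2 had r of 0.933, 0.876 and 0.848, and the median was 0.614. Lmx1a, which specifies the roof plate that gives rise to the choroid plexus, was at 3.89, 1.03 and 0.954 FPKM across control replicates 1 to 3 and at 3.97, 3.28 and 3.80 across mutant replicates 1 to 3.

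Pigment epithelium genes other than the members did not follow Ttr. Of 16 listed, 14 were tested, and their median r was -0.185. Of these, 0 reached r of 0.8 and 0 had control replicates 2 and 3 lowest, against 4.69% and 9.6% of all genes tested. Serpinf1 was between 41.8 and 94.1 FPKM with r of -0.514, Stra6 between 14.1 and 17.6 with r of 0.541, and Pmel between 8.99 and 12.8 with r of -0.842. Stra6, the receptor that takes up retinol from Rbp4, was highest in control replicate 1 and mutant replicate 1. Pigment cell genes such as Pmel are shared with melanocytes. Of 11 lens genes, 0 reached r of 0.8, and their summed level was 156, 312 and 266 FPKM across control replicates 1 to 3 and 123, 376 and 177 across mutant replicates 1 to 3. The lens and Ttr thus shared the highest sample, mutant replicate 2, while control replicate 2 was second for the lens and lowest for Ttr. Of 8 retinal progenitor genes, 0 reached r of 0.8, and their median was 0.194.

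The liver and yolk sac, which also make Ttr, left little trace. Of 16 such genes, 5 passed the filter. Alb and Afp, the defining secreted proteins, were at no more than 0.0739 and 0.0208 FPKM in any sample, and Apob at no more than 0.0246. Trf, which is also made by choroid plexus and glia, made up most of the list's sum of 5.89 to 7.91 FPKM, lying between 4.12 and 5.96, with r of 0.779. Of 13 genes of retinol handling, 11 were tested, 0 reached r of 0.8 and the median r was -0.347, with Crabp1 and Crabp2 at 143 FPKM or more in every sample.

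**Figure D4:**
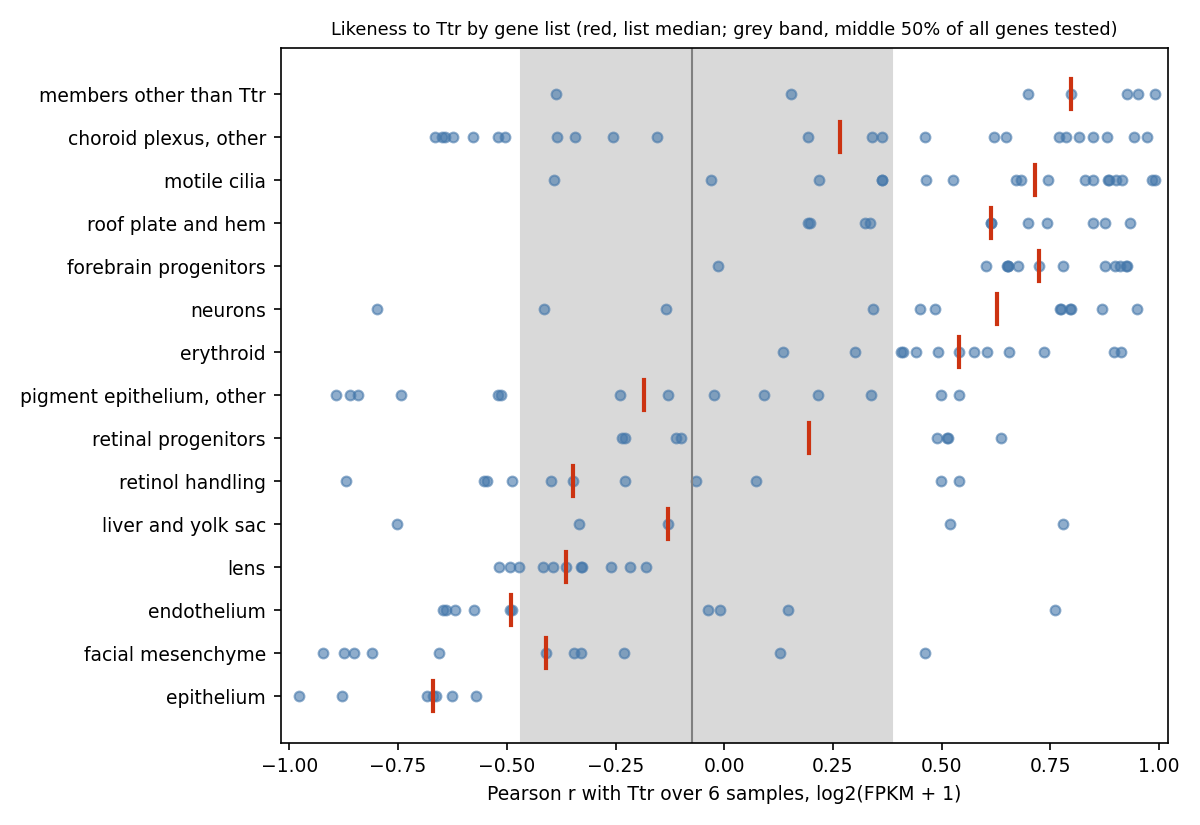
Pearson's r with Ttr over the 6 samples (horizontal axis, log2(FPKM + 1)) for each gene tested of each list (blue points), with the list median in red; the grey band holds the middle 50% of all genes tested, -0.47 to 0.39, around their median of -0.074. Members, motile cilia, roof plate, forebrain, neuron and erythroid lists have medians above the band. Pigment epithelium, liver and yolk sac, retinol, lens and facial mesenchyme lists have negative medians. Those of the endothelium (-0.490) and epithelium (-0.670) lists are the lowest and lie below the band.

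Markers of other tissues moved with Ttr as well, and their part in the values above was not tested. In bulk tissue, fewer cells of a type and less RNA per cell cannot be told apart. Of 13 forebrain progenitor genes, 5 had control replicates 2 and 3 lowest, against 9.6% of all genes tested, and the median r was 0.72. Their summed level was 353, 153 and 231 FPKM across control replicates 1 to 3 and 255, 292 and 271 across mutant replicates 1 to 3. Lhx2 and Hes5 had r of 0.898 and 0.780, and Emx2 had -0.015.

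Of 12 neuron genes, 7 had control replicates 2 and 3 lowest and the median r was 0.628, with sums between 894 and 1136 FPKM. Of 13 erythroid genes, 6 had those 2 controls lowest and the median r was 0.540. Having those 2 controls lowest was seen in 9.6% of all genes tested. The erythroid sums were 11141, 5625 and 6059 FPKM across control replicates 1 to 3 and 10996, 7583 and 11542 across mutant replicates 1 to 3, and Hba-a1 had r of 0.896. Control replicates 2 and 3 were therefore also the samples with the lowest erythroid sums. In contrast, the facial mesenchyme sums lay between 528 and 666 FPKM with a median r of -0.409, 10 endothelial genes had a median r of -0.490, and 7 epithelial genes had -0.670. The epithelial sums were 123, 225 and 188 FPKM across control replicates 1 to 3 and 123, 176 and 127 across mutant replicates 1 to 3. No gene of any of these lists passed an adjusted p of 0.05 between mutants and controls.

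Among the 52 genes with a mean FPKM over 1 and an SD of log2(FPKM + 1) over 1, the most like Ttr over the 6 samples was Olig3, a basic helix-loop-helix factor of the dorsal neural tube and thalamus, with r of 0.93. It was at 5.58, 0.0842 and 0.0702 FPKM in control replicates 1, 2 and 3 and at 1.14, 4.55 and 1.40 in mutant replicates 1, 2 and 3. After it r fell to 0.75 for Gm26448, 0.68 for Gm15516 and 0.59 for Rpl26. The Y-linked genes Uty, Kdm5d, Ddx3y and Eif2s3y, high in mutant replicates 1 and 2 only, followed at 0.51 to 0.53. Gm3608 and Gm9805 came next at 0.48 and 0.44. With the SD limit lowered to 0.5 after the data were seen, 280 genes qualified, and Foxj1 was the most like Ttr of them all. Of the next 9, those with a gene symbol were Gm17071, Lmx1a, Olig3, Folr1, Dbx1, Gdf1, Neurog2 and Fgfr3, with r from 0.95 to 0.91. Dbx1 and Neurog2 are factors of neural progenitors.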

How the data were processed

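Poly(A)+ stranded libraries of 3 control and 3 mutant samples were sequenced as paired-end reads. The authors aligned them with STAR to GRCm38 and deposited FPKM values, in 1 table of all samples and 6 of single samples (0 differing values). The step that made the table, its annotation, its strand setting and the STAR version are not given in the sources used here; the submitters' processing notes name Cuffdiff and FastQC 0.11.4. Values were taken to log2(FPKM + 1), genes with a mean FPKM over 0.1 over all samples were kept, and mutants and controls were compared with limma 3.58.1 (R 4.3.3, intensity trend, Benjamini-Hochberg adjustment over all genes tested), checked on simulated data. Exact two-sided permutation tests used FPKM. The members and lists were chosen with earlier results of these data known. List genes are the 200 entries of 15 lists, 8 of them matched by identifier. Genes named are the members, the 4 most abundant genes of each list, the 10 most like Ttr, up to 5 more variable than Ttr, and Rbfox2. Others were chosen after their values were seen, and 1 gene under this rule is not reported here.

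Low values stood at 1 ratio for 27.9% to 32.0% of genes in pairs among replicates 2 and 3 and for at most 7.99% in pairs with a first replicate, so whole reads were not recovered and the reads behind each value are unknown; the study gives only an approximate range of reads per sample. Deviations of same-numbered controls and mutants correlated at 0.50, 0.24 and 0.31 across genes, each over the limit of 0.1 set for pairing; control replicate 3 and mutant replicate 2 also correlated at 0.27, above the pair numbered 2, so the values mainly set the first replicates apart, and the labels and methods tie no litter to a number. Alternatives were another pseudocount, scaling, filters, no trend, the replicate block, a term for the first replicates, replicates 2 and 3 only, and each sample left out.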

Additional observations from a re-analysis of the deposited data

How the results depend on the processing

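No member passed an adjusted p of 0.05 in limma under any alternative run (adjusted p between 0.237 and 1.0). The unadjusted calls did change. The share of all genes tested that passed 0.05 stands in brackets. Kcnj13 passed in all samples together (2.49%), and Foxj1 and Kcnj13 with a term for the first replicates (5.91%). Folr1, Clic6, Foxj1 and Kcnj13 passed without control replicate 1 (6.79%), and Folr1 and Kcnj13 without mutant replicate 1 (4.16%). Aqp1 alone passed without mutant replicate 2 (1.83%), and no member without control replicate 2 (1.45%) or 3 (2.05%). Past an adjusted p of 0.05 in limma stood 0 genes, and from 0 to 6 with 1 sample left out, with 2 without control replicate 1 and 6 without mutant replicate 3. The 443 genes past an unadjusted p of 0.05 became 167 with an FPKM over 5 in all samples of a group, 286 with a mean FPKM over 1 (fewer genes tested), 1035 with the replicate block, 1053 with a term for the first replicates, 1595 in replicates 2 and 3 only, and 259 to 1211 with 1 sample left out, 259 without control replicate 2, 742 without mutant replicate 1 and 1211 without control replicate 1. The cause of these shifts was not tested, and the block changed no call on a member, adjusted or unadjusted.

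The number of members with r of at least 0.8 was 3 to 5 with 1 sample left out, 5 without mutant replicate 1, where Rbp4 rose to 0.980. The r of Rbp4 was lowest, at 0.594, without mutant replicate 2. With a pseudocount of 0.1 the log2 fold change was 1.15 for Kcnj13, 1.11 for Folr1 and 0.11 for Rbp4. With 1 sample left out it ranged from 0.41 to 0.98 for Folr1 and from 0.43 to 1.03 for Foxj1 (lowest without control replicate 2, highest without control replicate 1), from 0.18 to 0.56 for Clic6 (the extremes arising when mutant replicate 2 and control replicate 1 were dropped), and from -0.50 to -0.13 for Aqp1 (mutant replicates 2 and 3 dropped), whose r ranged from -0.85 to -0.11. The log2 fold change of Rlbp1 turned to 0.019 in replicates 2 and 3 only and ranged from -0.33 to 0.12 with 1 sample left out, and that of Rbp4 from -0.035 to 0.18. The r of Rlbp1 ranged from -0.28 to 0.57 with 1 sample left out, and the r of Aqp1 turned to 0.891 over the 4 samples without control replicates 2 and 3. The sign of the fold change turned for Rlbp1 without control replicate 3, mutant replicate 1 or mutant replicate 3, and for Rbp4 without control replicate 3 or mutant replicate 2, and the r of Rlbp1 turned without control replicate 2 or mutant replicate 2. Low FPKM values, as for Kcnj13, Kl and Kcne2, carry an unknown counting error.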
